A study of Mus musculus with 12 samples.

Results

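The mouse microRNA (miRNA) entries numbered mmu-miR-680 to mmu-miR-721 were followed across retina and sclera in form-deprivation myopia. They were chosen by name alone, with any letter, arm or version suffix kept. The array carried 42 such entries among 696 mouse miRNA names, and 160 of its 1937 mouse miRNA probes belonged to them. All samples came from C57BL/6J mice aged 34 postnatal days. A frosted plastic diffuser had covered the right eye for 10 days from postnatal day 24, which gave the myopic retina and myopic sclera groups. The uncovered left eyes of deprived mice gave the control retina and control sclera groups, so the controls had also gone through the anaesthesia and the surgery of the other eye. Each group held 3 arrays, numbered by pool, and according to the extraction protocol each array received RNA pooled from 3 eyes. The labels give each array a single mouse identifier, shared by the eyes and tissues of the same number, and do not list the animals of a pool.

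A miRNA is cut from a hairpin precursor, loaded into an Argonaute protein and guides it to messenger RNAs that pair with its seed, the bases near its 5′ end. Most entries in this number range were first described by sequencing small RNA cloned from mouse, and several have no known counterpart outside rodents. Some were later traced to other RNA classes: mmu-miR-720 matches a fragment of a transfer RNA, and mmu-miR-712 is cut from the precursor of ribosomal RNA. mmu-miR-702 is a mirtron, a short spliced intron that serves as the hairpin. How many of these entries give a signal in the eye, in which tissue and on how many probes is therefore a question of its own.

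Mature sequences for 32 of the 42 entries were taken from RefSeq (GRCm38.p6), and each is shown 5′ to 3′ with its seed, bases 2 to 8, in capitals. The following are entries that gave a signal in 1 or both tissues and carry the results below.
mmu-miR-683: cCUGCUGUaagcuguguccuc
mmu-miR-704: aGACAUGUgcucugcuccuag
mmu-miR-705: gGUGGGAGguggggugggca
mmu-miR-700-3p: cACGCGGGaaccgaguccacc
mmu-miR-690: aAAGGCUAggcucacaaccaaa
mmu-miR-697: aACAUCCUgguccuguggaga
mmu-miR-702: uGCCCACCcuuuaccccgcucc
mmu-miR-721: cAGUGCAAuuaaaagggggaa
The array's name mmu-miR-702 was matched through its probes to the arm that RefSeq calls mmu-miR-702-3p. The 32 matched entries had 32 different seeds, and 4 of them shared a seed with another mouse miRNA in the table. The seed of mmu-miR-721, AGUGCAA, was that of mmu-miR-130a-3p, mmu-miR-130b-3p and mmu-miR-301a-3p, among 6 miRNAs in all. The seed of mmu-miR-705, GUGGGAG, occurred in 3 others.

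Of the entries without a match, mmu-miR-689, mmu-miR-696, mmu-miR-709, mmu-miR-712-5p, mmu-miR-715 and mmu-miR-720 gave signals, and their array probes are shown in place of the miRNA. The probe is written 5′ to 3′ as the array file gives it, the longest of each set of nested probes, with the stretch that all probes of the set share in capitals.
mmu-miR-696 probe: CCCACAGCAAGcac
mmu-miR-709 probe: TCCTCCTGCCTc
mmu-miR-712-5p probe: GGTACCGCCCggg
mmu-miR-715 probe: CACGCGGGGGtgt
mmu-miR-720 probe: TGGAGGCCCCAg
mmu-miR-689 probe: GGACCCCGCCGAg
The array lists mmu-miR-689 and mmu-miR-715 under older database versions (mmu-miR-689_v15.0 and mmu-miR-715_v16.0). Each entry was read by 20 spots, split over 2 or 4 probes.

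The matched sequences lay at the following places in GRCm38.p6. mmu-miR-704 was at chr6:47803590-47803610 on the minus strand, within Pdia4, and mmu-miR-705 at chr6:85336341-85336360 on the minus strand, within Rab11fip5. mmu-miR-700-3p was at chr4:135416561-135416581 on the minus strand, within Rcan3. mmu-miR-690 lay within Fgf12, mmu-miR-697 within Sf3a3, mmu-miR-702 within Plod3 and mmu-miR-721 within Cux1. mmu-miR-683 had 2 copies, one of them at chr13:50544644-50544664 on the minus strand, and neither copy lay within a gene of the table. Of the 32 matched entries 28 lay within the span of another gene. Whether that was an exon or an intron, and on which strand the gene runs, is not given in the table used.

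The retina and sclera arrays carried the miRNAs of their labels. The summed signal of 5 retinal markers (miR-124, miR-9, miR-182, miR-183 and miR-96) was 197559 to 297315 on the 6 retina arrays and 735 to 13205 on the 6 sclera arrays. The summed signal of 5 fibroblast and smooth muscle markers, among them miR-199a and miR-214, was 106 to 373 on the retina arrays and 4996 to 14693 on the sclera arrays. Sclera arrays therefore held measurable signal of the retinal markers, and the source of that signal was not tested. Among retina arrays the summed fibroblast and smooth muscle signal was highest on control retina 3, where miR-200b and miR-205, both epithelial, were also detected. All 3 muscle markers were detected on all 12 arrays, with summed signals of 178 to 406 on the retina arrays and 660 to 2801 on the sclera arrays, and the median of miR-206 was 98.3 in retina and 87.5 in sclera. Among all 696 names, 353 to 401 were detected on a retina array and 274 to 317 on a sclera array. In RNA from whole tissue, fewer cells of a type and less RNA per cell cannot be told apart.

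More of these entries were silent than of the array as a whole: 22 of the 42 entries (52.4%) were undetected on all 12 arrays, against 253 of all 696 names (36.4%). Detection here is the scanner software's mark that at least 1 probe of the entry had a signal above 3 times its error. The silent entries were mmu-miR-680, mmu-miR-682, mmu-miR-684, mmu-miR-687, mmu-miR-688, mmu-miR-691, mmu-miR-692, mmu-miR-693-3p, mmu-miR-693-5p, mmu-miR-694, mmu-miR-695, mmu-miR-698, mmu-miR-703, mmu-miR-707, mmu-miR-708-5p, mmu-miR-710, mmu-miR-711, mmu-miR-712-3p, mmu-miR-713, mmu-miR-717, mmu-miR-718 and mmu-miR-719. Over their 88 probes and 12 arrays the probe signal had a median of -0.68 and reached at most 4.605. Their best ratio of signal to error was 2.97, for mmu-miR-698 on myopic retina 2, just under the detection limit. Only 4 of them, mmu-miR-684, mmu-miR-693-5p, mmu-miR-698 and mmu-miR-703, passed a ratio of 2 on any array. An undetected entry has no measured level, and a lower level than the array can show was not distinguished from absence.

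The 20 detected entries fell into sets that differed in how many arrays and probes stood behind them. Detection on all 12 arrays was found for 9 entries (21.4%), against 246 of all names (35.3%). These were mmu-miR-689, mmu-miR-690, mmu-miR-697, mmu-miR-700-3p, mmu-miR-702, mmu-miR-709, mmu-miR-712-5p, mmu-miR-715 and mmu-miR-720. A further 3, mmu-miR-683, mmu-miR-696 and mmu-miR-704, were detected on retina arrays alone, and 2, mmu-miR-681 and mmu-miR-706, on sclera arrays alone. mmu-miR-705 and mmu-miR-721 were detected on some arrays of both tissues, and 4 entries were detected on 1 array each. How many of all names fell into these smaller sets was not counted.

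**Figure D1:**
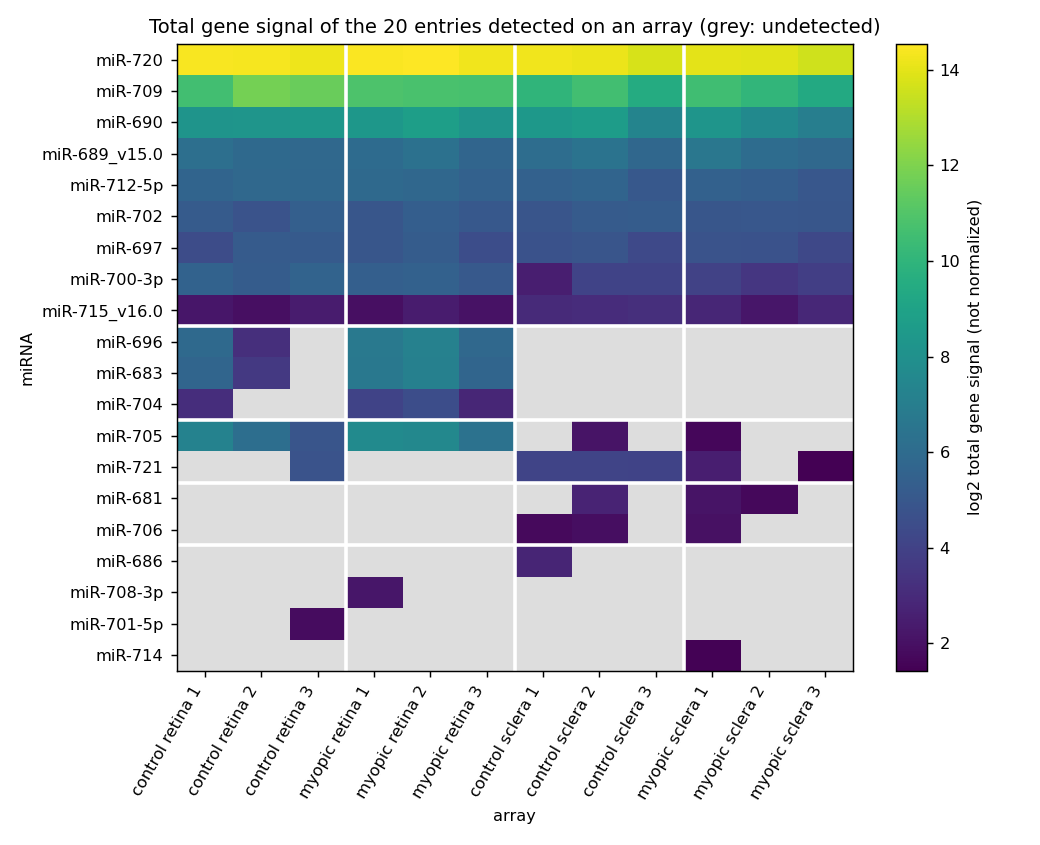
Log2 total gene signal, not normalized, of the 20 detected entries (rows) on the 12 arrays (columns), grey where undetected. The top 9 rows are filled on all arrays, mmu-miR-696, mmu-miR-683 and mmu-miR-704 are filled only on retina arrays, and the last 4 rows have 1 filled cell each.

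Firmness was graded by the best ratio of signal to error among the probes of an entry, with a ratio of at least 6 on all 3 arrays of a group called firm. By this grade 8 entries were firm in control retina, 10 in myopic retina, 6 in control sclera and 6 in myopic sclera. Those are 19.0%, 23.8%, 14.3% and 14.3% of the 42 entries, against 37.8%, 44.4%, 27.4% and 31.8% of all 696 names. Firm in all 4 groups were mmu-miR-689, mmu-miR-690, mmu-miR-702, mmu-miR-709, mmu-miR-712-5p and mmu-miR-720. mmu-miR-700-3p and mmu-miR-705 were firm in both retina groups and in neither sclera group. mmu-miR-683 and mmu-miR-696 were firm in myopic retina only. The best ratio levelled off just below 10, at 10.0 after rounding for mmu-miR-720 and mmu-miR-709. The other entries firm in all 4 groups differed in their lowest ratio over all arrays. It was 6.07 for mmu-miR-702, 8.58 for mmu-miR-689, 8.67 for mmu-miR-712-5p and 9.77 for mmu-miR-690. With the plain detection mark, 10, 13, 10 and 9 entries were detected on all 3 arrays of control retina, myopic retina, control sclera and myopic sclera. These were 23.8%, 31.0%, 23.8% and 21.4% of the 42 entries, against 47.4%, 53.4%, 38.9% and 41.2% of all 696 names.

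**Figure D2:**
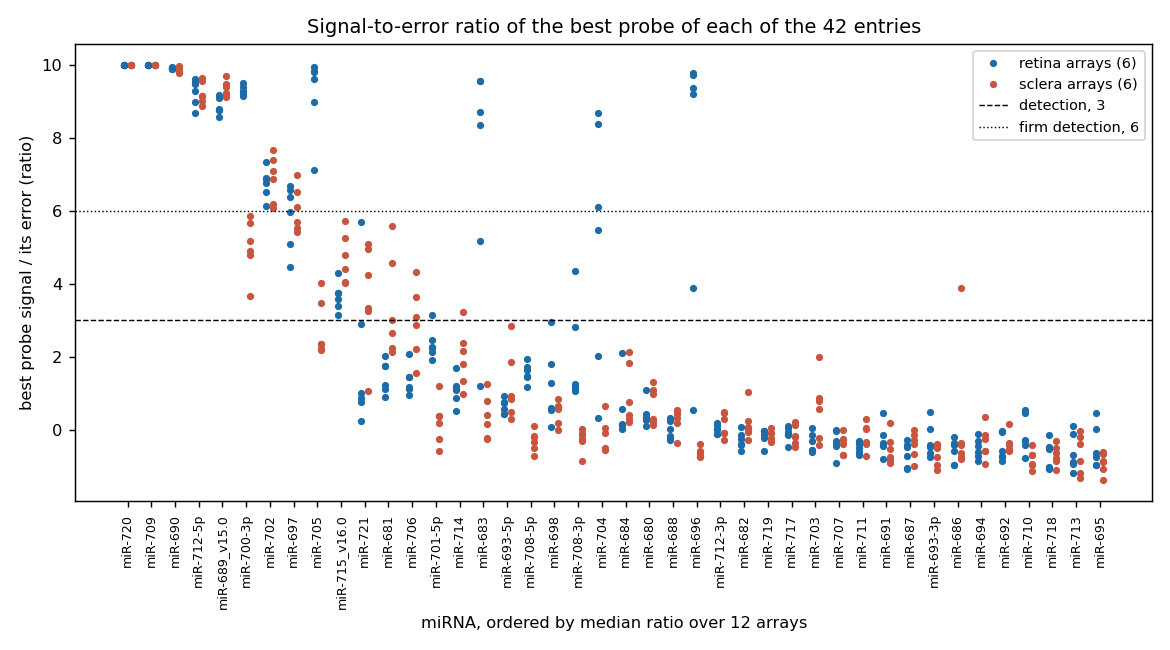
Best ratio of probe signal to its error for each of the 42 entries, 1 point per array (blue retina, red sclera), with lines at 3 (detection) and 6 (firm detection). The ratios of mmu-miR-700-3p and mmu-miR-705 lie above 6 on all retina arrays and below 6 on all sclera arrays, and the right side of the plot holds the undetected entries near 0.

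mmu-miR-705 was detected on all 6 retina arrays and on 2 of the 6 sclera arrays. Its total gene signal was 153, 72.9 and 29.8 in the control retina pools, in order, against 205, 185 and 81.3 in the myopic retina pools. In sclera it was detected on control sclera 2 at 4.32 and on myopic sclera 1 at 3.10, each time by the longest of its 4 probes, and was undetected on the other 4 arrays. The tissues did not overlap, before or after quantile normalization. On the normalized scale that held for 58.9% of the names tested in control eyes and 78.6% in myopic eyes. All 4 probes were above 3 times their error on all 6 retina arrays. The summed retinal marker signal was 13205 on control sclera 2 and 7116 on myopic sclera 1, the highest value in each sclera group, and its part in these scleral detections was not tested. The log2 difference after quantile normalization was 5.37 ± 1.47 (SE, limma, adjusted p = 0.0104) between control retina and control sclera and 5.80 ± 1.47 (limma, adjusted p = 0.00569) between myopic retina and myopic sclera. In these values 2 of the 3 sclera arrays of each group stand at the floor set for undetected signals. Leaving out 1 array at a time gave 4.61 (without control sclera 1) to 6.96 (without control sclera 2) in control eyes and 5.06 (without myopic sclera 2) to 7.37 (without myopic sclera 1) in myopic eyes.

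mmu-miR-696 and mmu-miR-683 came next. mmu-miR-696, studied in muscle as a regulator of the mitochondrial coactivator PGC-1α, had total gene signals of 60.5 and 9.10 on control retina 1 and 2 and was undetected on control retina 3. On the myopic retina arrays its signals were 106, 148 and 58.4, and it was undetected on all 6 sclera arrays. mmu-miR-683 showed the same layout, with 52.6 and 12.0 on control retina 1 and 2, no detection on control retina 3, 101, 140 and 51.4 on the myopic retina arrays, and no detection in sclera. For both, the retina signal came from all 4 nested probes on 4 arrays. On the sclera arrays the best ratio of signal to error stayed below 0 for mmu-miR-696 and reached 1.265 for mmu-miR-683.

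mmu-miR-704 rested on less. Its signal was 8.98 on control retina 1 and 16.9, 22.8 and 7.07 on the myopic retina arrays, and it was undetected elsewhere. All of it came from the longest of the 4 probes, 15 nucleotides long, and the probes of 12, 13 and 14 nucleotides stayed below the limit on all 12 arrays. The 4 probes of mmu-miR-704 are shown with the bases that each adds to the shortest in capitals, because only the last one gave signal.
12 nucleotides: ctaggagcagag
13 nucleotides: ctaggagcagagC
14 nucleotides: ctaggagcagagCA
15 nucleotides: ctaggagcagagCAC

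A call required an adjusted p below 0.05 over all 443 names tested and a difference of at least 2-fold. mmu-miR-683 and mmu-miR-696 were called higher in control retina than in control sclera (limma, adjusted p = 0.0293 and 0.0330), where 27.5% of the names tested were called higher. In the myopic eyes, with 32.5% called higher, mmu-miR-683, mmu-miR-696 and mmu-miR-704 were called higher in retina than in sclera (limma, adjusted p = 0.000876, 0.000841 and 0.00247). In both comparisons these entries passed the detection filter through retina arrays alone, and all their sclera values stood at the floor. Their p-values therefore depend on the floor and do not compare measured levels of the 2 tissues. Because their sclera arrays carry no measured level, the differences in the myopic eyes are given as lower bounds. These are set against the lowest detected signal of each sclera array after scaling to the 75th percentile. In the myopic eyes the bounds were at least 15.3-fold higher in retina for mmu-miR-696, at least 14.1-fold higher for mmu-miR-683 and at least 2.19-fold higher for mmu-miR-704. In the control eyes 1 retina array of 3 was undetected and was set at the floor of 0.5, so the same calculation gives no strict bound. It gave 1.18-fold higher for mmu-miR-696 and 1.24-fold higher for mmu-miR-683, both below the 2-fold required for a call. Both control calls ended without control retina 1, without control retina 2, without any 1 of the control sclera arrays, in a fit of the 2 groups alone, and with no filter on undetected names. That of mmu-miR-696 also ended with the floor raised to the smallest signal detected. The 3 calls in the myopic eyes and both calls of mmu-miR-705 held without each array in turn. With normexp background correction all of these calls ended, in control and in myopic eyes, and the difference of mmu-miR-705 turned to -0.12 and -0.026.

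mmu-miR-683 and mmu-miR-696 ordered the 6 retina arrays in the same way, from myopic retina 2 over myopic retina 1, control retina 1, myopic retina 3 and control retina 2 to control retina 3, which came last as undetected. mmu-miR-704 kept this order over the 4 retina arrays where it was detected, and was undetected on control retina 2 and 3. mmu-miR-705 differed from that order only in the place of its top 2 arrays. The median total gene signal over all 696 names followed the same order, with 18.6, 13.0, 9.07, 8.71, 5.63 and 3.70, and of the 418 names detected in retina 63 (15.1%) did so, with undetected arrays counted as tied. Whether the overall signal of an array takes part in the order of these entries was not tested.

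**Figure D3:**
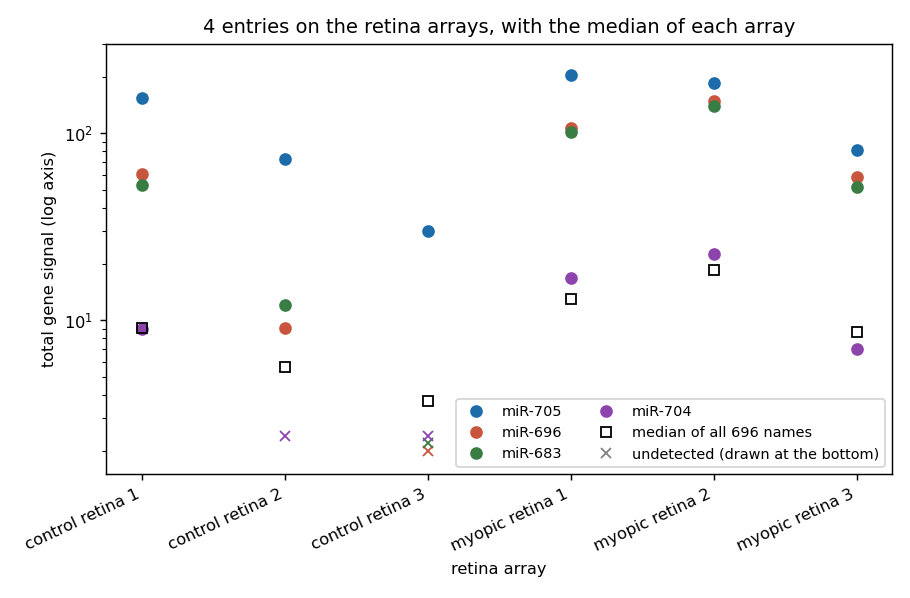
Total gene signal (log axis) of mmu-miR-705, mmu-miR-696, mmu-miR-683 and mmu-miR-704 on the 6 retina arrays, with crosses at the bottom for undetected arrays and open squares for the median over all 696 names. For mmu-miR-696, mmu-miR-683 and mmu-miR-704 control retina 1 lies close to and just above myopic retina 3, and control retina 3 is lowest or undetected for all 4.

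No entry was called between myopic and control retina, where 0.226% of the 443 names tested were called (1 name, none of these entries). On the quantile-normalized log2 scale, mmu-miR-696 was 3.19 ± 1.21 higher in myopic retina (SE, limma, adjusted p = 0.151), mmu-miR-683 3.02 ± 1.21 higher (limma, adjusted p = 0.151) and mmu-miR-704 2.34 ± 0.76 higher (limma, adjusted p = 0.134). Control retina 3, and for mmu-miR-704 also control retina 2, stands at the floor in these values. Without control retina 1 the differences were 4.56, 4.22 and 3.34, and without control retina 3 they were 1.46, 1.24 and 1.82, in the same order. For mmu-miR-704 the lowest value was 1.78, without control retina 2. Each of the 3 was higher in the myopic eye of all 3 pools, and for each of them control retina 1 exceeded myopic retina 3 in total gene signal. mmu-miR-705 was also higher in the myopic eye of all 3 pools, by 0.17, 0.27 and 0.71, and differed by 0.38 ± 1.47 (limma, adjusted p = 0.991). That SE is shared over the 4 groups of the fit and is not the spread in retina alone. The SD of mmu-miR-705 was 0.81 in control retina, 0.54 in myopic retina, 2.67 in control sclera and 2.59 in myopic sclera. At an unadjusted p under 0.05, 6 of the 20 tested entries and 130 of the 443 names passed. The other 3 entries were mmu-miR-689, mmu-miR-712-5p and mmu-miR-715, with log2 differences of -0.69, -0.72 and -1.44 after quantile normalization. Before normalization their mean total gene signals were close, at 64.0, 54.2 and 4.65 in control and 65.0, 53.5 and 4.45 in myopic retina. For the 246 names detected on all arrays, the median log2 difference in retina was -0.21 after quantile normalization and 0.08 without normalization. Without control retina 1, 6 entries were called on the quantile-normalized scale. In myopic retina mmu-miR-683, mmu-miR-696 and mmu-miR-704 were then higher and mmu-miR-697, mmu-miR-712-5p and mmu-miR-715 lower. With array weights 6 were also called, mmu-miR-700-3p in place of mmu-miR-712-5p. The share of all names called in these alternative fits is not given here, so the counts cannot be read as particular to these entries.

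The total gene signal of mmu-miR-709, a miRNA known from the cell nucleus in mouse, showed a different spread in retina. It was 1530, 3595 and 2936 for the control retina pools and 1902, 1724 and 1666 for the myopic ones. The control arrays lay both above and below the myopic ones, and the log2 difference was -0.53 ± 0.33 (SE, limma, adjusted p = 0.330). On sclera it was 1046, 1516 and 710 in control and 1460, 1064 and 674 in myopic eyes, and both of its probes were above 3 times their error on all 12 arrays. All retina signals thus lay above all sclera signals, narrowly at 1530 against 1516. mmu-miR-709 was called between the control tissues without normalization and with normalization within each tissue. Quantile normalization over all arrays gave no such call, and between the myopic tissues none of these settings did. Without normalization the 246 names detected on all arrays were themselves higher in retina, by a median log2 difference of 1.17 in control and 1.58 in myopic eyes. The shares of all names called or without overlap in these settings are not given here, so neither result can be read as particular to mmu-miR-709.

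In sclera no entry was called between myopic and control eyes, and 0% of the 443 names tested were (limma; at an unadjusted p under 0.05, 0 of the 20 entries and 13 of the 443 names). The entry with the largest fitted difference was mmu-miR-721, reported in mouse immune cells and sharing its seed with the miR-130 family. Its total gene signal was 17.2, 17.1 and 16.8 on the control sclera arrays, and 5.76, undetected and 2.69 on the myopic ones. The groups did not overlap, before or after quantile normalization, and on the normalized scale the same held for 5.42% of the names tested. The log2 difference was -3.03 ± 1.73 (SE, limma, adjusted p = 1.00). In retina mmu-miR-721 was detected on control retina 3 alone, at 27.4, by all 4 probes. That array also carried the highest summed signal of the fibroblast and smooth muscle markers among the retina arrays (373, against 106 to 154 on the others) and the only retinal detection of miR-200b and miR-205. The part of other ocular tissue in this value was not tested. Between control retina and control sclera mmu-miR-721 was -4.40 ± 1.73 and missed the threshold narrowly (limma, adjusted p = 0.05004), and it passed with the pool number as a block and under scaling to the 75th percentile.

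The change with deprivation was also compared between the tissues. No entry was called for that difference, where 0.226% of the names tested were, and 1 of the 20 entries, mmu-miR-689, had an unadjusted p under 0.05 (log2 difference of the changes -0.84 ± 0.34, limma, adjusted p = 0.380). Without control retina 1, 3 entries were called (mmu-miR-696, mmu-miR-697 and mmu-miR-704), and with array weights 11. For these fits, too, the share of all names called is not given here.

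Entries on the edge of detection had sclera or single arrays behind them. mmu-miR-681 was detected on control sclera 2, myopic sclera 1 and myopic sclera 2 at 6.56, 4.30 and 3.32, by 1 of its 4 probes, 11 nucleotides long. mmu-miR-706 was detected on control sclera 1, control sclera 2 and myopic sclera 1 at 3.36, 3.83 and 4.01, by its longest probe alone. Their ratios of signal to error on the retina arrays stayed at 2.03 and 2.07 or below. Neither was detected on all 3 arrays of a group.

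The 4 single-array entries each had 1 probe above the limit, and the 5 spots of that probe told them apart. For mmu-miR-686 on control sclera 1 the processed spot signals were -5.71, -5.68, -3.68, 25.3 and 94.2, so 3 of the 5 spots were below 0. For mmu-miR-708-3p on myopic retina 1 they lay close together, from 12.6 to 15.6, and the ratio of signal to error was 4.35. For mmu-miR-701-5p on control retina 3 they ran from 8.96 to 12.3 with a ratio of 3.15, and for mmu-miR-714 on myopic sclera 1 from 6.00 to 13.4 with a ratio of 3.23. mmu-miR-708 sits within Tenm4, and its other arm, mmu-miR-708-5p, was undetected on all arrays.

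Among the 9 entries present everywhere, the tissues did not overlap before normalization for mmu-miR-709 and mmu-miR-700-3p. How many of all names did so on that scale was not counted, so this cannot be read as particular to these entries. For mmu-miR-700-3p the difference lay in its longer probes. Its total gene signal was 46.5, 37.3 and 49.1 on control retina, 41.5, 45.5 and 34.5 on myopic retina, 5.85, 16.9 and 16.9 on control sclera and 16.1, 11.2 and 14.5 on myopic sclera. All retina arrays lay above all sclera arrays. The 4 nested probes are shown with the bases added to the shortest in capitals, because the tissues separated only on the longer 2.
12 nucleotides: ggtggactcggt
13 nucleotides: ggtggactcggtT
14 nucleotides: ggtggactcggtTC
15 nucleotides: ggtggactcggtTCC
The 15-nucleotide probe gave 26.0 to 35.4 on the retina arrays and 3.86 to 6.86 on the sclera arrays, and the 14-nucleotide probe 7.59 to 10.0 and 2.54 to 4.14. On the 13-nucleotide probe the ranges overlapped, 2.99 to 4.73 in retina and 2.12 to 4.36 in sclera, and on the 12-nucleotide probe they were 1.85 to 4.53 and 2.94 to 4.49. Part of the scleral signal therefore came from the short probes, which did not separate the tissues.

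**Figure D4:**
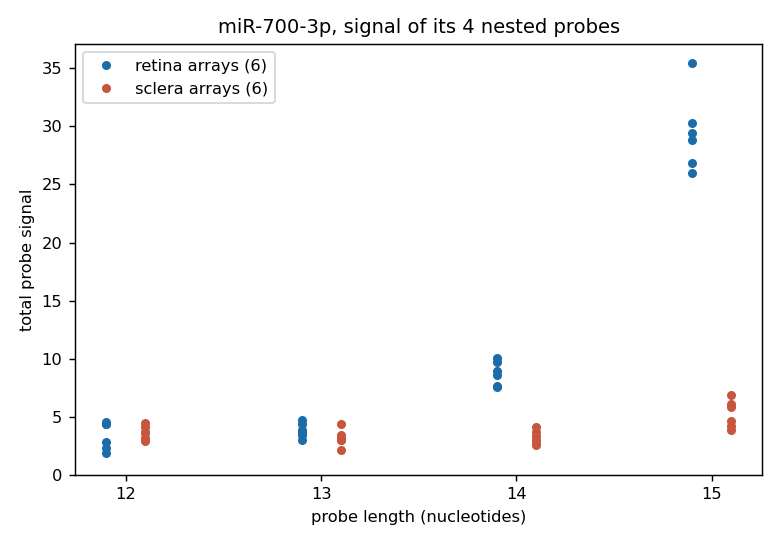
Total probe signal of the 4 nested mmu-miR-700-3p probes against probe length in nucleotides, 1 point per array (blue retina, red sclera, 6 arrays each). The tissues overlap at 12 and 13 nucleotides and separate at 14 and 15.

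mmu-miR-700-3p was not called between tissues after quantile normalization over all arrays, with log2 differences of 0.27 ± 0.50 (SE, limma, adjusted p = 0.659) in control and -1.12 ± 0.50 (limma, adjusted p = 0.0733) in myopic eyes. Without normalization both passed, at 1.89 and 1.55. The names detected on all arrays were then higher in retina by a median log2 difference of 1.17 in control and 1.58 in myopic eyes. The direction in the myopic eyes thus depended on the scaling.

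The same dependence held for most entries present on all arrays. Before normalization their signals were close in both tissues. mmu-miR-702 ran from 27.4 to 42.7 on the retina arrays and from 29.6 to 38.1 on the sclera arrays. mmu-miR-689 ran from 51.7 to 78.6 and from 56.2 to 98.8, and mmu-miR-697 from 22.6 to 37.7 and from 19.5 to 29.4. mmu-miR-690 gave 292 to 431 in retina and 129 to 411 in sclera, mmu-miR-712-5p 44.5 to 59.5 and 31.2 to 50.1, and mmu-miR-720 19081 to 23811 and 12202 to 19442. The tissues overlapped for all 6. For mmu-miR-712-5p only the probes of 12 and 13 nucleotides gave signal, on all 12 arrays, and those of 10 and 11 nucleotides on none. mmu-miR-715 stayed near the limit, at 3.88 to 5.34 in retina and 4.67 to 9.14 in sclera, with a ratio of signal to error of 3.13 to 5.73.

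After quantile normalization, 10 of the 20 tested entries were called between control retina and control sclera, where 50.6% of the names tested were called. Besides the 3 higher in retina (mmu-miR-683, mmu-miR-696 and mmu-miR-705), 7 were lower in retina (27.5% and 23.0% of the names tested were called higher and lower), namely mmu-miR-689, mmu-miR-690, mmu-miR-697, mmu-miR-702, mmu-miR-712-5p, mmu-miR-715 and mmu-miR-720. The median log2 difference of the tested entries was -1.11, against 0.30 for all names tested. Between myopic retina and myopic sclera 10 were called, against 58.9% of the names tested, 4 higher (the same 3 and mmu-miR-704) and 6 lower (the same 7 without mmu-miR-690), where 32.5% and 26.4% of the names were called in these directions, with medians of -1.30 and 0.36. The log2 differences of the entries called lower ran from -2.58 to -1.07 in control and from -3.77 to -1.88 in myopic eyes.

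These lower calls are relative to the other miRNAs of an array and changed with the scaling. Of the 246 names detected on all arrays, the median log2 difference of retina over sclera in control eyes was -0.24 after quantile normalization, 0.13 after scaling to the 75th percentile and 1.17 without normalization, and in myopic eyes -0.32, 0.39 and 1.58. mmu-miR-720 shows how this works: it held rank 2 of all names on every sclera array and rank 5 or 6 on every retina array, so quantile normalization gave it 15.72 on all sclera arrays and 13.7 or 13.9 on the retina arrays. Its normalized sclera values thus had no spread, and the p-values of its calls leave out the range of its sclera signals before normalization (12202 to 19442). Its log2 difference was -1.90 in both comparisons (limma, adjusted p = 2.66e-07 and 2.60e-07), and without normalization it was 0.29 in control and 0.60 in myopic eyes. In the control comparison mmu-miR-690, mmu-miR-697, mmu-miR-702 and mmu-miR-712-5p also turned their sign without normalization. mmu-miR-689, mmu-miR-702 and mmu-miR-715 remained called lower in retina under scaling to the 75th percentile in both comparisons, with log2 differences of -1.16, -1.02 and -1.92 in control eyes. The calls of mmu-miR-683, mmu-miR-696 and mmu-miR-705, and that of mmu-miR-704 in myopic eyes, held under both of those scalings. For mmu-miR-683, mmu-miR-696 and mmu-miR-704 all sclera values stood at the same floor under each scaling. A change of scaling could move only their retina values, so it is a weak check of these calls.

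**Figure D5:**
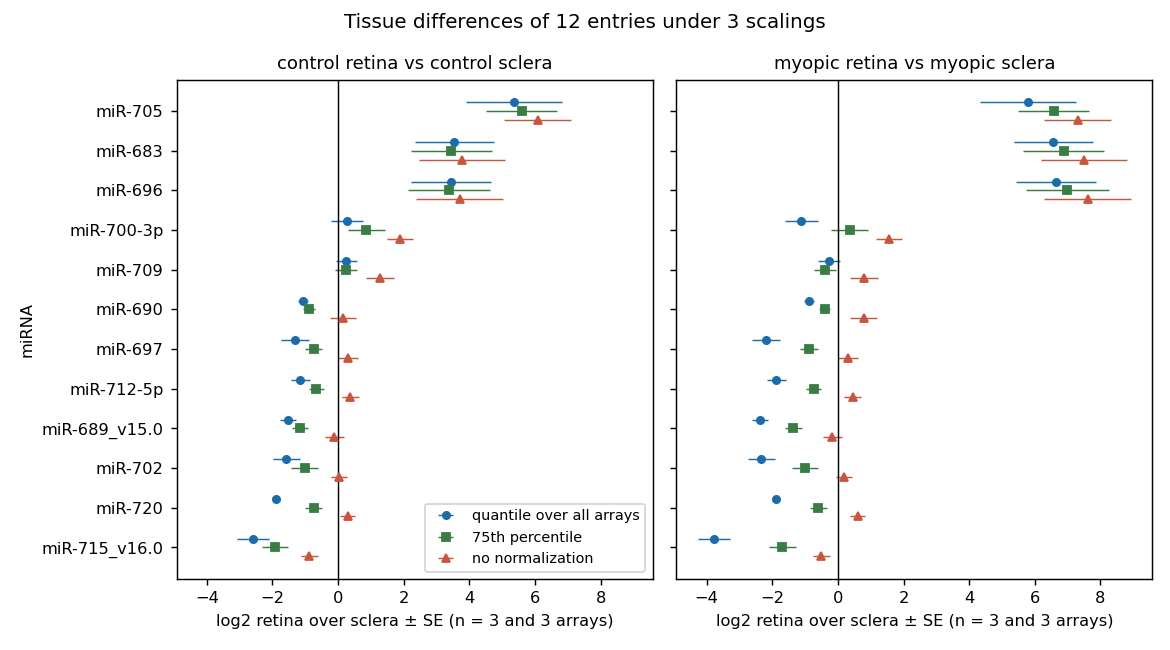
Log2 difference of retina over sclera with its SE for 12 entries in control (left) and myopic eyes (right), under quantile normalization, scaling to the 75th percentile and no normalization (3 arrays per group). mmu-miR-705, mmu-miR-683 and mmu-miR-696 lie right of 0 under all 3, and mmu-miR-720, mmu-miR-702, mmu-miR-712-5p and mmu-miR-697 lie left of 0 when normalized and right of 0 when not. All sclera values of mmu-miR-683 and mmu-miR-696 stand at the floor under all 3.

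Sequence composition was described for the matched entries. The 13 detected ones had a median GC content of 52.4% (36.4% to 75%) and the 19 undetected ones 47.8% (33.3% to 81.0%), with a median length of 21 nucleotides in both. The ranges overlapped over nearly their whole width. No other mature mouse sequence of the table held the complement of the shortest probe of a detected entry.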

How the data were processed

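RNA of 12 pools (3 per group) was hybridised, 1 per array, to 1-colour Agilent mouse miRNA arrays. The deposited scanner files hold spot, probe and gene intensity values that the Agilent Feature Extraction software had background-subtracted and summed (the total gene signal, listed as 0.1 where undetected). A deposited table of log2 values, made by the authors in Partek 6.6, was used as an alternative only. It correlated with the values computed here (r = 0.999 over 437 names), and its centring is not stated.

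Entries were selected by name (numbers 680 to 721) and described on unnormalized signals. For tests, total gene signals were floored at 0.5, quantile normalized over 696 names and 12 arrays and set to log2, after the methods of the study. The 443 names detected on at least 1 array were tested in 1 limma 3.58.1 fit of 4 groups (R 4.3.3), with Benjamini-Hochberg adjustment, in 5 contrasts. Calls required adjusted p below 0.05 and 2-fold. An undetected value stands at -1 on the log2 scale. Fitting was tested on simulated data. Other steps used Python 3.11, pandas and numpy. Arrays of 1 number come from the left and right eyes of 1 mouse identifier in the labels, which pairs them. The correlations of paired deviations were 0.38, -0.46 and 0.59 in retina and -0.14, -0.16 and -0.00 in sclera. Each group had its own position on the slides and each slide held 1 pool number, so position and group cannot be told apart. p-values measure the spread between pools, shared over the 4 groups, after flooring and normalization. Groups that stand wholly at the floor, and the sclera groups of mmu-miR-720, had no spread on that scale, so the p-values leave out the spread of those pools. A group with some arrays at the floor widens the shared spread, also for contrasts without that group. For mmu-miR-696 the SD was 3.16 in control retina and 0.36 in myopic retina.

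Named entries were those called in any contrast, mmu-miR-696 and mmu-miR-704 (from the study's list, chosen on these samples and so not independent evidence), the 10 with the highest median signal, and any detected throughout one tissue alone. mmu-miR-681, mmu-miR-686, mmu-miR-701-5p, mmu-miR-706, mmu-miR-708-3p, mmu-miR-714, mmu-miR-721 and the undetected entries were named after their values were seen. The entries and lists were chosen with earlier results of these data known. The number of arrays limits the precision.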

Additional observations from a re-analysis of the deposited data

How the results depend on the processing

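The counts of entries detected on all arrays of a group changed little under 2 stricter marks, and leaving out an array gave 10 to 12 in control retina, 13 in myopic retina, 10 to 11 in control sclera and 9 to 10 in myopic sclera. Firm counts were 8 to 9, 10 to 11, 6 and 6 to 7 without an array. With a minimum ratio of 4, 10 were firm in control sclera, and with a minimum of 10, 0 in every group, since the ratio levels off below it.

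In the fit that takes the pool number as its replicate block, 0 entries were called between myopic and control eyes in retina and in sclera, 11 in each tissue comparison (mmu-miR-721 and mmu-miR-700-3p were added, none lost) and 0 for the difference between tissues. Without an array the counts were 0 to 6 in retina, 0 in sclera, 6 to 11 between control tissues, 10 to 12 between myopic tissues and 0 to 3 for the difference, and control retina 1 gave the 6 in retina, the 6 between control tissues and the 3. Array weights gave 6 in retina and 11 for the difference. Between control tissues 5 were called without normalization, 5 with normalization within each tissue, 1 (mmu-miR-720) with normexp background correction and 6 in a fit of the 2 groups alone. Between myopic tissues the first 3 of these gave 5, 4 and 1 (again mmu-miR-720). None of the counts in this paragraph is set against the share of all names called in the same fit.

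Some log2 differences turned sign. Between control tissues they were 0.15, 0.30, 0.018, 0.37 and 0.29 without normalization for mmu-miR-690, mmu-miR-697, mmu-miR-702, mmu-miR-712-5p and mmu-miR-720. With normalization within each tissue they were 0.24 (mmu-miR-689), 0.28 (mmu-miR-690), 0.71 (mmu-miR-697), 0.38 (mmu-miR-702), 0.75 (mmu-miR-712-5p), 0.030 (mmu-miR-715) and 0.37 (mmu-miR-720). Between myopic tissues they were 0.31, 0.19, 0.45 and 0.60 without normalization for mmu-miR-697, mmu-miR-702, mmu-miR-712-5p and mmu-miR-720, and 0.050 and 0.37 with normalization within each tissue for mmu-miR-712-5p and mmu-miR-720. normexp gave mmu-miR-705 -0.12 in control and -0.026 in myopic eyes. The cause was not tested. The remaining alternatives turned no sign of a called entry. Signals near 3 times the error, as for mmu-miR-715, limit what can be read from them.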
